A study of Mus musculus with 4 samples.

Results

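A set of 7 replication-dependent histone genes was examined in RNA from the fetal mouse testis, out of 235 named genes and 382 transcripts that the authors' deposited tables hold. The 7 are 5 genes of histone H4 (Hist1h4f, Hist1h4h, Hist1h4i, Hist2h4 and Hist4h4), 1 of histone H3 (Hist1h3f) and 1 of histone H2B (Hist3h2ba). They were chosen by the authors' own calls: each had a row in at least 1 of 6 tables that compare the libraries in pairs, so their listing and direction describe the choice and test nothing. The gonads came from wildtype CD1 embryos at E13.5 and had been separated from the mesonephros before freezing. There was 1 library in each of 4 groups: Control, with the treatment given as none, ACE+ACE (acetaminophen), ASP+ACE (aspirin with acetaminophen) and IBU+ACE (ibuprofen with acetaminophen). The values taken for Control are those of a library named EtOH, and whether a vehicle was given is unknown. All 4 groups share strain, genotype and stage. How much of each drug was given, on which days, and whether embryos were pooled were not known for these libraries. The study examined what exposure to these drugs in the womb does to the forming testis.

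Histones are the proteins around which DNA is wound, and a cell that copies its genome needs new histones at the same time. The replication-dependent genes supply them in S phase, lie mostly in clusters, have no introns as a rule, and make mRNAs that end in a short conserved stem-loop in place of a poly(A) tail. Stem-loop binding protein (Slbp) holds that hairpin and governs processing, translation and decay of the mRNA. In the testis at this stage male germ cells are leaving the cell cycle while Sertoli and interstitial cells divide. The libraries were made from total RNA depleted of ribosomal RNA, a method that keeps mRNAs without a poly(A) tail.

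The stem-loop is a defining feature of these mRNAs, so its copies are shown first. A pattern of 16 bases (GGCNCT, then TTTN, then AGNGCC, where N is any base) was searched on the transcript strand after the stop codon of each annotated transcript, and 7 of the 7 genes had it. The sequences below come from the GENCODE M21 transcripts (GRCm38), with the stem-loop in capitals and 5 bases on either side.

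Hist1h4f (chr13:23551286-23551311, minus strand): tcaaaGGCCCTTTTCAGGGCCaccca

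Hist1h4h (chr13:23531453-23531478, plus strand): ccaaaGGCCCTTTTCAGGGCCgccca

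Hist1h4i (chr13:22040961-22040986, minus strand): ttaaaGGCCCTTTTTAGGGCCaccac

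Hist2h4 (chr3:96262934-96262959, minus strand): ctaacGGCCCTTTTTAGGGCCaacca

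Hist4h4 (chr6:136803993-136804018, minus strand): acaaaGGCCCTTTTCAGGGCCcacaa

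Hist1h3f (chr13:23544927-23544952, plus strand): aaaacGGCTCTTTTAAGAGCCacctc

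Hist3h2ba (chr11:58949344-58949369, plus strand): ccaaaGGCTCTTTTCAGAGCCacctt

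The 5 H4 genes have the stem GGCCCT and the H3 and H2B genes the stem GGCTCT. The stem-loop began between 25 nt (Hist1h4f) and 54 nt (Hist4h4) after the stop codon. Of the 60 other coding histone genes with a Hist symbol, 34 had the same pattern in the annotated transcript. A transcript without a match may stop short of the stem-loop or carry other letters in it.

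The 5 H4 genes encode 1 protein from diverged genes. Translation of their coding parts (309 nt each) gave the same 103 residues, first methionine included, in all 10 pairs, and in all 13 annotated coding H4 genes. Their coding DNA nevertheless differed at 13 to 45 positions. Hist1h4h and Hist1h4i were the closest pair, with 95.8% identity, and Hist2h4 and Hist4h4 the most distant, with 85.4%. A change in any of the 5 is therefore a change in messages for 1 and the same histone.

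Levels in the authors' deposited tables are read as FPKM (fragments per kilobase, scaled to the mapped total), so levels of different genes can be set side by side. The number of reads behind a level is unknown. A table holds called rows and no others, all with a q of 0.0310, so a gene has a value for a library only if some table with that library lists it. The 7 genes have 19 of the 28 possible values, and a missing value says nothing about the level. "Rose" is used only where the authors' deposited table lists the difference. Since each group has 1 library, nothing here was checked in replicates, and a difference is between libraries rather than conditions. In RNA from a whole organ, a different number of dividing cells and a different amount of histone mRNA per cell cannot be told apart.

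Hist1h4f was the H4 gene measured in all 4 libraries. It lies in the large histone cluster of chromosome 13 (23551258 to 23551648 on GRCm38, minus strand). Control had 142 FPKM of it, whereas ACE+ACE had 274 FPKM, ASP+ACE 284 FPKM and IBU+ACE 296 FPKM. Control was the low library and the 3 exposed libraries lay within 1.08 times of each other. All 4 values come from rows called against Control, so the low place of Control is part of the choice. In the authors' deposited tables the log2 fold changes over Control were 0.95, 0.99 and 1.06, so that the level rose 1.93, 1.99 and 2.08 times.

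Hist1h3f, the H3 gene, had almost the same profile. It lies in the same cluster of chromosome 13 (23544465 to 23545312, plus strand). Control had 52.1 FPKM, whereas ACE+ACE had 96.6 FPKM, ASP+ACE 96.1 FPKM and IBU+ACE 104 FPKM. Again Control stood below the other libraries, which spanned a factor of 1.08. The log2 fold changes over Control in the authors' deposited tables were 0.89, 0.88 and 0.996. Over the 3 exposed libraries the log2 ratios of Hist1h4f and Hist1h3f to Control differed by a root mean square of 0.08. All 3 of these comparisons share the 1 Control library, so their likeness is not 3 separate observations. The values of Hist1h3f too come only from rows called against Control, so its low Control is part of the choice.

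Hist4h4, an isolated H4 gene on chromosome 6 (136801553 to 136804415, minus strand), had values in 3 libraries. It stood at 45.4 FPKM in Control, 66.7 FPKM in ACE+ACE and 78.7 FPKM in IBU+ACE. Both listed differences were against Control, and the authors' deposited tables give them as log2 fold changes of 0.55 for ACE+ACE and 0.79 for IBU+ACE. The step from ACE+ACE to IBU+ACE, 1.18 times, was not listed. No value for ASP+ACE can be read.

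Hist1h4h and Hist2h4 could be read in Control and IBU+ACE only. Hist1h4h (chromosome 13, 23531050 to 23531522, plus strand) rose from 297 to 432 FPKM and had the highest level of the histone genes read in either library. Hist2h4, in the cluster of chromosome 3 (96261682 to 96263311, minus strand), rose from 10.7 to 21.7 FPKM and had the lowest. The log2 fold changes in the authors' deposited table were 0.54 for Hist1h4h and 1.03 for Hist2h4. The gene with the highest FPKM thus had the smallest of the 5 ratios to Control, while in FPKM its difference was 134 against 11.1 for Hist2h4. Which gene is highest or lowest depends on the locus lengths, as given further below. Summed over the 4 H4 genes with both values, the level went from 496 FPKM in Control to 828 FPKM in IBU+ACE, or 1.67 times, and 86.7% of that difference came from Hist1h4f and Hist1h4h. That share depends on the locus lengths: with each level multiplied by the length of its deposited locus, a scale chosen after the values had been seen, the share of that pair was 52.2% and Hist4h4 gave the most of the 4, 40.2%.

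The last pair differed between exposed libraries and had no Control value. Hist1h4i (chromosome 13, 22040636 to 22041362, minus strand) lies 1489688 nt from Hist1h4h, elsewhere among the histone genes of that chromosome. It rose from 41.3 FPKM in ACE+ACE to 74.6 FPKM in IBU+ACE, which the authors' deposited table gives as a log2 fold change of 0.85. Hist3h2ba, an H2B gene of chromosome 11 (58948920 to 58949533, plus strand), rose from 17.8 FPKM in ASP+ACE to 29.9 FPKM in IBU+ACE, which the authors' deposited table gives as a log2 fold change of 0.75. Where they stood relative to Control cannot be read. In all 7 genes the highest of the values that can be read was that of IBU+ACE, and in the 5 with a Control value Control was the lowest. For 4 of the 7 the only 2 values are those of the row that chose the gene, so their order is part of the choice. For Hist1h4f, Hist1h3f and Hist4h4 all values come from rows called against Control, so Control as the lowest is part of it too. Of all rows, 81.6% were higher in IBU+ACE against Control, 89.2% against ACE+ACE and 92% against ASP+ACE.

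**Figure D1:**
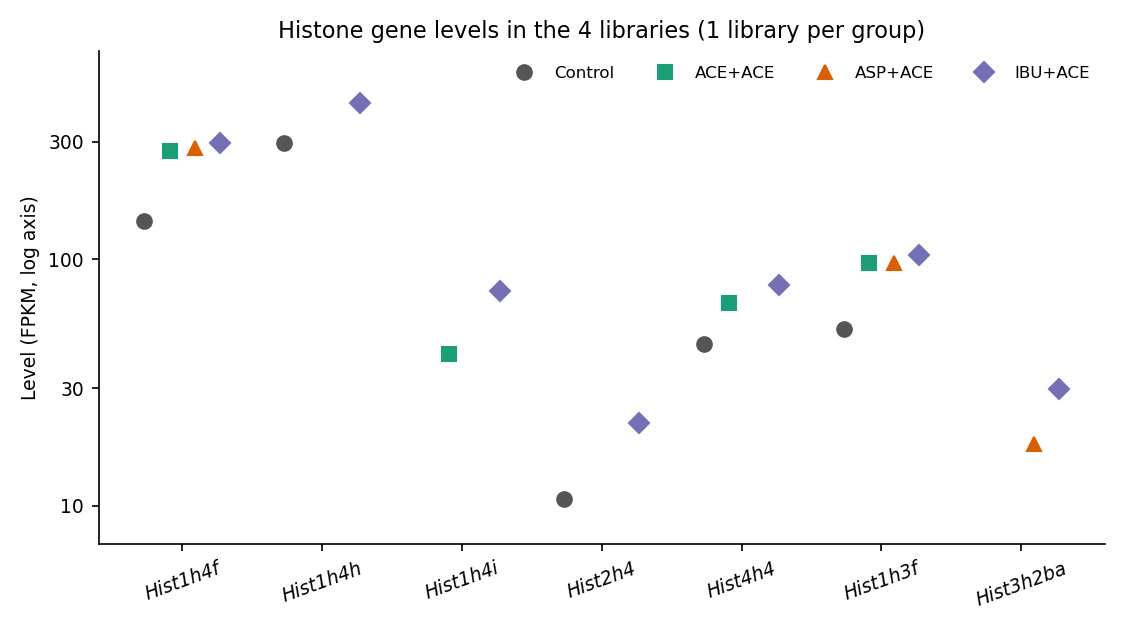
Level of each of the 7 histone genes (FPKM, log axis) in the libraries for which a value can be read, 1 point per library and no error bar because each group has 1 library. Control is the lowest point in the 5 genes that have it, at 142 FPKM against 274 to 296 FPKM for Hist1h4f, and IBU+ACE is the highest in all 7. Where a gene has 2 points, they come from the row that chose it, so their order is part of the choice. Where it has more, they come from rows called against Control, so the low Control point is part of the choice.

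The number of these genes called differed by table and has to be read beside the size and direction of each table. Against Control, ACE+ACE had 3 of the 7 listed, all higher. That table holds 17.5% of the 382 transcripts (those in any table, as the number tested is unknown), and 25.4% of its rows are higher in ACE+ACE. ASP+ACE had 2 of the 7 listed against Control, both higher, in a table with 11.5% of the transcripts and 34.1% of its rows higher. IBU+ACE had 5 of the 7 listed against Control, all higher, where the table holds 48.4% of the transcripts and 81.6% of the rows are higher.

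Between exposed libraries the histone genes were rarely listed. ACE+ACE against ASP+ACE had 0 of the 7, in a table with 6.28% of the transcripts. ACE+ACE against IBU+ACE had 1, Hist1h4i, in a table with 60.7% of the transcripts and 89.2% of its rows higher in IBU+ACE. ASP+ACE against IBU+ACE had 1, Hist3h2ba, in a table with 45.5% of the transcripts and 92% of its rows higher in IBU+ACE. Since the genes were picked from these rows, nothing is read from the counts. All 12 rows that list a histone gene give the second-named library as the higher.

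As a description, the median ratios were set beside those of all listed transcripts, which are called rows and not the whole transcriptome. Over the 3 genes with values in Control and ACE+ACE the median log2 ratio was 0.89, against -0.34 over the 160 transcripts with both values. For ASP+ACE over Control it was 0.94 with 2 genes, against -0.21 over 132 transcripts. For IBU+ACE over Control it was 0.996 with 5 genes, against 1.04 over 186 transcripts. All values of the histone genes are above 10 FPKM, and over transcripts with at least 10 FPKM in the higher library the median for IBU+ACE was 0.68 (56 transcripts), below that of the histone genes. On the same footing ACE+ACE had -0.58 (30 transcripts) and ASP+ACE -0.61 (24 transcripts). Both medians were above 0 in IBU+ACE, whereas in ACE+ACE and ASP+ACE that of the histone genes was above 0 and that of all listed transcripts below. The histone genes and the transcripts beside them entered by being called, so both medians show the choice as well as the libraries.

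Among the exposed libraries the medians were 0.02 for ASP+ACE over ACE+ACE (2 genes), 0.17 for IBU+ACE over ACE+ACE (4 genes) and 0.11 for IBU+ACE over ASP+ACE (3 genes). The medians over all listed transcripts with both values were 0.01, 1.59 and 1.58, and over those with at least 10 FPKM in the higher library 0.01, 0.96 and 0.78. In the comparison of IBU+ACE with ACE+ACE, Hist1h4f differed by 1.08 times, Hist1h3f by 1.08 times and Hist4h4 by 1.18 times, none of them listed, while Hist1h4i differed by 1.80 times and was listed. Whether Hist1h4i differs from the other 3 in this was not tested.

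The listed histone differences were small beside the rows of all levels in their tables, and the transcripts were abundant. Each was below the median absolute log2 fold change of its table. Those medians ran from 1.38 to 1.80 over the 5 tables with a histone gene, and rows of every level enter them. In Control against IBU+ACE, 45 of the 185 rows reach 10 FPKM in the higher library, as the histone rows do. Among those 45, changes such as Vcan (0.79) and Cst9 (0.85) were smaller than that of Hist1h3f (0.996). Others, such as Col2a1 (3.64), were larger, so the histone differences are not read as small for their level. Hist4h4 had the smallest absolute log2 fold change of the 67 rows of Control against ACE+ACE in the authors' deposited table. Hist1h4h had the next to smallest of the 185 rows of Control against IBU+ACE, after the small RNA gene Rprl3 at 0.52. Hist1h4h also had rank 3 by level in IBU+ACE among the 123 named rows of that table, and Hist1h4f rank 4. The nearest ratio outside the calls was that of Hist4h4 between ACE+ACE and IBU+ACE, a log2 of 0.24, and the nearest inside was that of Hist1h4h, 0.54.

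**Figure D2:**
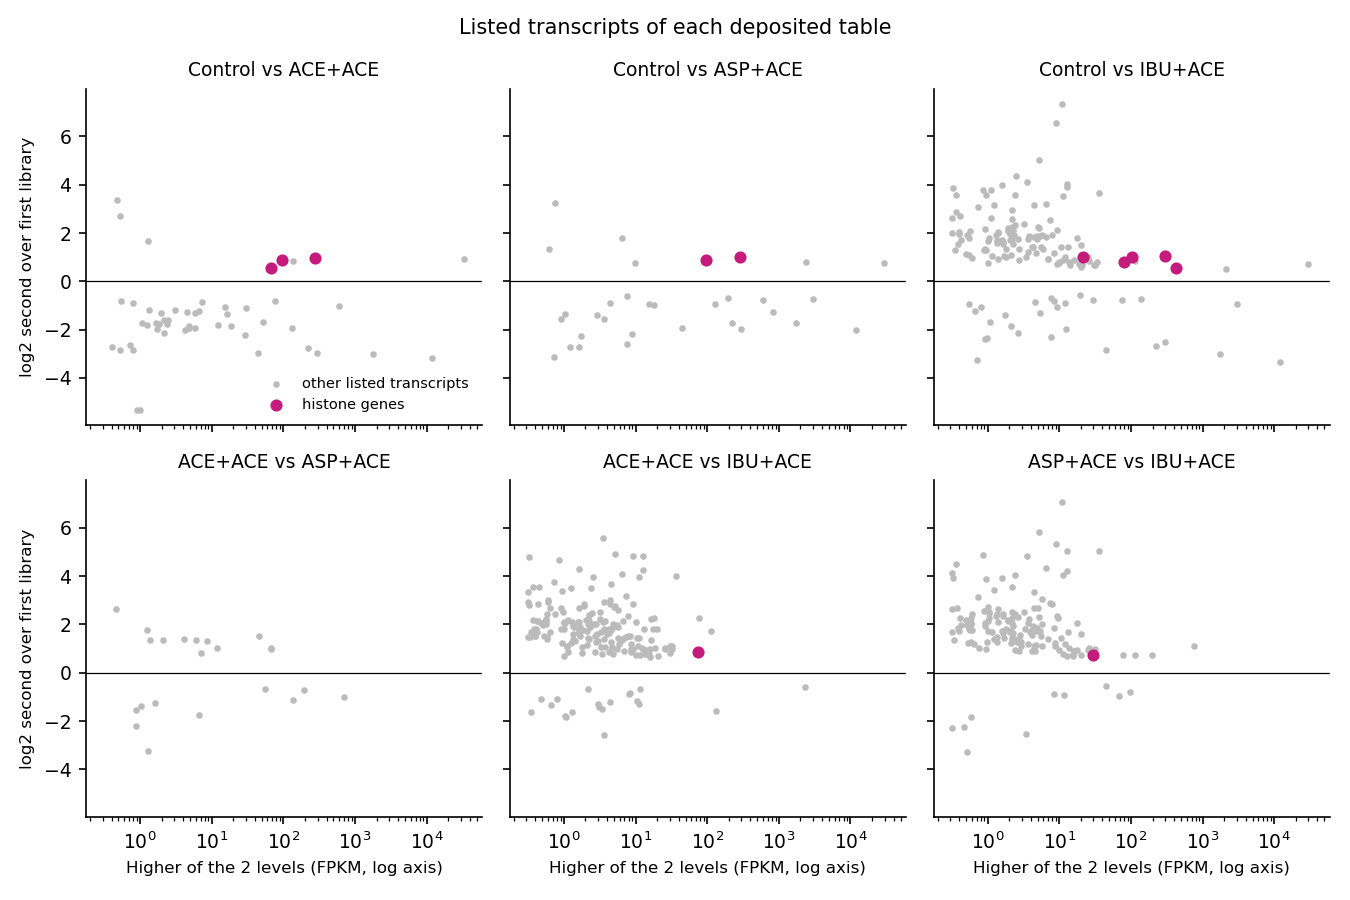
Each deposited table as a panel: log2 of the second over the first library against the higher of both levels (FPKM, log axis) for 617 rows, with the histone genes in magenta and other transcripts in grey (109 rows listed at 0 in 1 library are not drawn). The histone points lie above 0, at the right of the cloud and close to the axis, with log2 values from 0.54 to 1.06.

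Of the histone genes at large, few could be seen at all. GENCODE M21 holds 67 coding genes with a Hist symbol, 6 of H1, 18 of H2A, 18 of H2B, 12 of H3 and 13 of H4. The tables list 5 of the 13 H4 genes, 1 of the 12 H3 genes, 1 of the 18 H2B genes and none of the H2A or H1 genes. Including pseudogenes, 63 Hist genes besides the 7 appear in no table. Hist1h4h, Hist1h3f and Hist1h4f sit within 20599 nt of chromosome 13, a stretch that also holds the coding genes Hist1h2af, Hist1h2bh and Hist1h3g. Those 3 neighbours were not listed.

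No gene of the machinery around histone supply was listed in any of the 6 tables. This holds for 0 of 24 genes of histone mRNA transcription, processing and chaperoning, such as Slbp, Npat, which switches on histone genes at the start of S phase, and Lsm10 and Lsm11 of the U7 particle that cuts histone mRNA. It holds for 0 of 36 genes of S phase and DNA replication, such as the helicase genes Mcm2 to Mcm7 and the sliding clamp gene Pcna. It also holds for 0 of 18 genes of G2 and mitosis, 0 of 7 genes of cyclin-dependent kinase inhibitors and 0 of 15 replacement histone genes such as H3f3a, H3f3b and H2afz, which are made outside S phase. An unlisted gene was either not called or not tested, which the tables do not tell apart, so these zeros do not show equal levels. The 6 tables name 235 genes in all and the number tested is unknown. The share of all genes that was listed is therefore unknown, and nothing is read from the zeros.

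The genes whose levels ran most like Hist1h4f and Hist1h3f were not close to them. Likeness was the root mean square difference of the 3 log2 ratios to Control from the mean of that pair (0.92 for ACE+ACE, 0.94 for ASP+ACE, 1.03 for IBU+ACE), over 90 other named transcripts with a value in all 4 libraries. Serinc2 came first, with a difference of 0.58, at 1.51 FPKM in Control, then 2.09, 2.60 and 5.67 FPKM in the same order of exposed libraries. Prr16 (0.64), 2610203C20Rik (0.66), Gm38042 (0.70) and Gli3 (0.74), a transcription factor of hedgehog signalling, followed. These 5 genes have their values only through the 3 tables against IBU+ACE, each time higher there, so their excess in IBU+ACE comes with the choice and nothing is read from it.

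Genes of other tissues were also listed between the same libraries. Their lists were chosen with earlier results of these data known, so the counts are part of the choice and test nothing. The tables against Control hold 17.5% (ACE+ACE), 11.5% (ASP+ACE) and 48.4% (IBU+ACE) of the 382 transcripts. Of their rows, 25.4%, 34.1% and 81.6% are higher than in Control. Of 15 genes of skin, cartilage and limb, 11 were listed as higher in IBU+ACE than in Control, among them the limb genes Hoxa13 and Hoxd13 and the cartilage collagen gene Col2a1. The summed level of the 7 with all values was 7.05 FPKM in Control, 78.6 FPKM in IBU+ACE, 5.65 FPKM in ACE+ACE and 4.33 FPKM in ASP+ACE. Evx2 was the 1 gene of that list at 0, in ASP+ACE. Of 14 liver genes such as Afp and Alb, ACE+ACE had 7 lower than Control, ASP+ACE 2 and IBU+ACE 0. The sums over 5 of them were 209 FPKM in Control, 220 FPKM in IBU+ACE, 58.3 FPKM in ACE+ACE and 131 FPKM in ASP+ACE. Of 10 red cell genes such as Slc4a1, ACE+ACE had 3 lower than Control, ASP+ACE 2 and IBU+ACE 3. The sums over 3 of them were 3034 FPKM in Control, 1582 FPKM in IBU+ACE, 2362 FPKM in ACE+ACE and 1825 FPKM in ASP+ACE. The part of these cells in the histone levels was not tested.

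Of the markers of the testis itself, 2 of 12 Sertoli, 0 of 8 Leydig and 2 of 10 germ cell genes were listed in any table. Sox9, the switch of Sertoli cell fate, was at 5.98 FPKM in Control and rose to 10.04 FPKM in IBU+ACE. The Sertoli gene Cst9 rose there from 63.3 to 114 FPKM and the germ cell gene Dnmt3l from 1.24 to 4.41 FPKM, and the germ cell gene Sox2 fell from 12.0 to 6.39 FPKM. A marker has a value only where it was called, so these values do not show which cells each library held.

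How the 7 transcripts are annotated bears on their levels. Each deposited locus covers 1 annotated gene, and each gene has a single exon. RefSeq (GRCm38.p6) gives Hist4h4 a length of 439 nt, while the deposited locus spans 2863 nt, 6.52 times as much. For Hist2h4 the lengths are 384 and 1630 nt, and for Hist1h4i 403 and 727 nt. The GENCODE transcript goes on for 2445 nt past the stem-loop in Hist4h4, 1257 nt in Hist2h4, 365 nt in Hist1h3f, 330 nt in Hist1h4i and 169 nt in Hist3h2ba, but for 46 nt in Hist1h4h and 33 nt in Hist1h4f. Histone genes can also give longer, polyadenylated mRNAs that end beyond the stem-loop, a form known from cells that have left the cycle. Which part of a locus the reads came from was not analysed here.

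**Figure D3:**
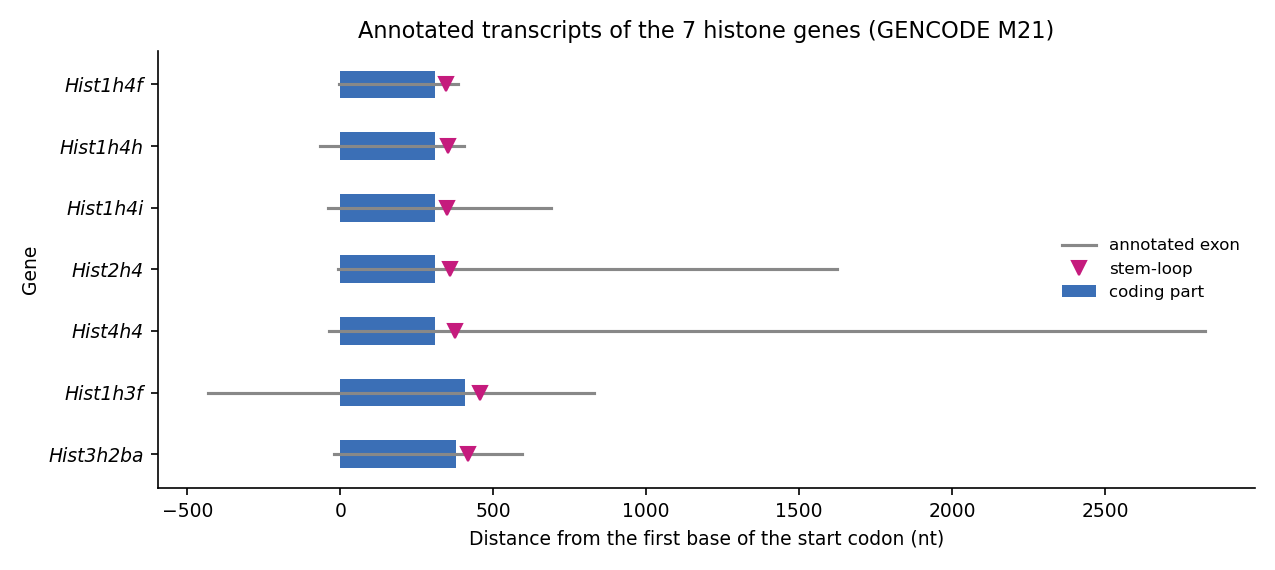
Annotated transcripts of the 7 genes drawn to scale from the start codon (nt), with the coding part as a blue bar and the stem-loop as a triangle. The stem-loop follows the stop codon within 54 nt in every gene, while the annotated exon ends 33 nt (Hist1h4f) to 2445 nt (Hist4h4) beyond it.

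FPKM divides by that length, so the order of the genes depends on it. By FPKM in IBU+ACE the order was Hist1h4h (432), Hist1h4f (296), Hist1h3f (104), Hist4h4 (78.7), Hist1h4i (74.6), Hist3h2ba (29.9) and Hist2h4 (21.7). Multiplying each level by the length of the deposited locus in kilobases undoes the division and leaves a scaled number of fragments, which was 225 for Hist4h4, 204 for Hist1h4h, 116 for Hist1h4f, 88.1 for Hist1h3f, 54.2 for Hist1h4i, 35.4 for Hist2h4 and 18.3 for Hist3h2ba. Hist4h4 moved from rank 4 to rank 1. The product is approximate, because the sources used here do not give the effective length behind the FPKM. Ratios between libraries do not depend on the length, provided that the effective length was the same in both libraries, which is unknown. With no replicates, whether neighbours in either order differ beyond their spread is unknown.

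Histone genes resemble each other closely enough for reads to fit several of them. Windows of 75 nt, the read length, were taken along each annotated transcript. They were looked up on both strands in all GENCODE transcripts of other genes, and only exact matches were counted. The share of windows found elsewhere was 42.4% for Hist1h4h, 42.0% for Hist1h3f, 24.6% for Hist1h4f, 22.4% for Hist1h4i, 13.9% for Hist3h2ba, 5.20% for Hist4h4 and 0% for Hist2h4. For Hist1h3f the annotated transcript has 1261 nt and the deposited locus 848 nt, so the share over the measured part can differ. The windows of Hist1h4f, Hist1h4h and Hist1h4i occurred in one another and in other H4 genes of the same chromosome, 10 genes or more in each case, so part of the level of each may belong to its relatives. Hist1h3f shared its windows with 13 genes, among them 11 H3 genes. Hist2h4 had no shared window, and Hist4h4 had few, all of those in genes other than histones. Near matches were not counted, and the part of shared reads in any of the rises was not tested. The median share was 22.4% over the 7 genes and 56.0% over the 60 other coding histone genes.

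**Figure D4:**
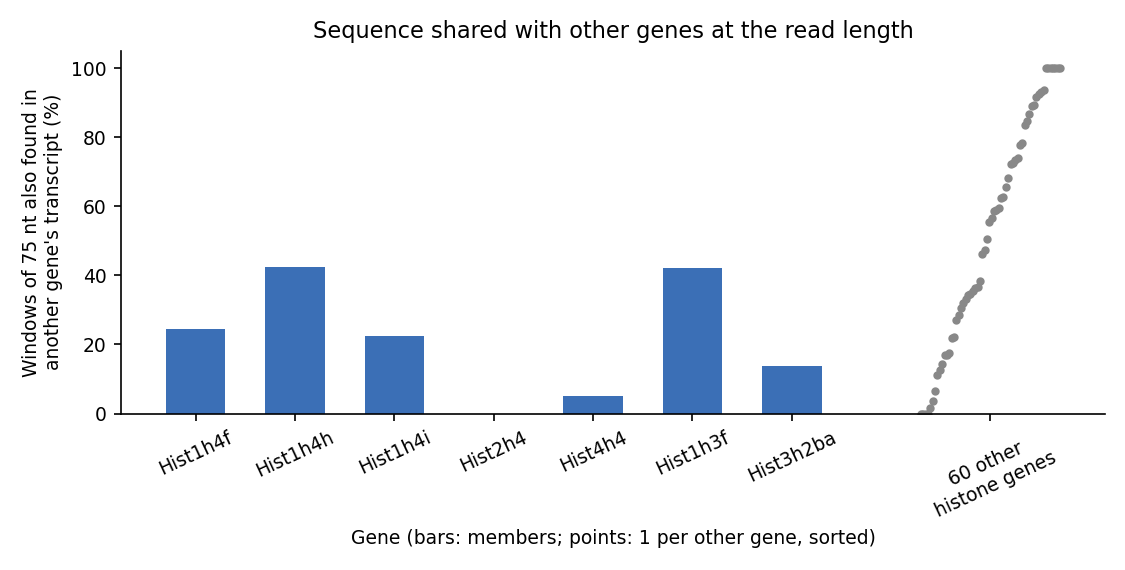
Share of 75 nt windows (%) of each annotated transcript that also occur in a transcript of another gene, as bars for the 7 genes and as 1 point for each of the 60 other coding histone genes. The bars run from 0% for Hist2h4 to 42.4% for Hist1h4h, and the other genes spread over the whole range with a median of 56.0%.

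The promoters of the H4 genes are shown because the 5 genes, on 3 chromosomes, encode the same protein. RefSeq promoter windows (GRCm38.p6, 250 nt before to 50 nt after the start) were at hand for 5 of the 7 genes. The 6 letters GGTCCG, part of an element that H4 genes are known to carry just before their TATA box, are in capitals. They were searched on both strands and chosen after these windows had been read.

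Hist1h4f (chr13:23551675-23551734, minus strand): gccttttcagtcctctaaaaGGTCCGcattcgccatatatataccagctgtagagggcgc

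Hist1h4h (chr13:23531019-23531078, plus strand): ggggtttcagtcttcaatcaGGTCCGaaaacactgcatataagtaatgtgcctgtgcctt

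Hist1h4i (chr13:22041369-22041428, minus strand): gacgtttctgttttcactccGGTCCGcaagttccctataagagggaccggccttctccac

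Hist4h4 (chr6:136804424-136804483, minus strand): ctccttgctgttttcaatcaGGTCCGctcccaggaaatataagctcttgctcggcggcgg

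The 4 H4 promoters each held GGTCCG 1 time, on the coding strand and 71 to 85 nt before the start codon, and that of Hist3h2ba held none. Among RefSeq windows of the same length it was present in 11 of 12 H4 genes, in 2 of 51 other histone genes and in 8.25% of all 32851 windows. The letters CCAAT, searched on both strands, were present in the window of Hist3h2ba and in none of the 4 H4 windows. Of all windows 37.4% held them, of H4 genes 3 of 12 and of other histone genes 51 of 51. These matches describe the letters of the windows and not the binding of any factor. H4 genes that no table lists had GGTCCG too, so its presence does not set the listed ones apart.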

How the data were processed

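RNA of 4 libraries, 1 per group, was sequenced as paired 75 nt reads, per the labels' protocols, and the depth reached is unknown. Cufflinks 2.2.1, TopHat2 2.1, Bowtie2 2.2.6 and the genome GRCm38 are named in the submitters' processing notes, with no settings. The authors deposited 6 tables of called transcripts, 726 rows, with values taken as FPKM from the layout, log2 fold changes, and 1 p-value (5e-05) and 1 q-value (0.0310) for all rows. The unit has no name in the file headers. The library named EtOH was matched to Control as the remaining one.

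Decimal commas were turned into points, 1 was added to each start, and values of 1 library were combined across tables, where 0 disagreed. Deposited and recomputed log2 fold changes differed by at most 1.09e-05. No test was run, as each group has 1 library. The reading and counting steps had been tested on simulated data. Genes were matched by symbol to GENCODE M21 (7 of 7) and, for promoters, to RefSeq (5 of 7). Named were the 7 genes, listed genes of fixed lists and the 5 genes most alike in profile. The members and lists were chosen with earlier results of these data known. Alternatives were 1 or 0.1 FPKM added, a higher value of at least 10 FPKM, an absolute log2 of at least 1, a q of at most 0.01, and loci of several genes left out. Python 3.11.15, numpy 2.4.6 and matplotlib 3.10.9 were used.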

Additional observations from a re-analysis of the deposited data

How the results depend on the processing

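The count of histone genes listed depended on the threshold. Asking for a change of at least 1 on the log2 scale beside the authors' call left 2 of 5 for IBU+ACE against Control (Hist1h4f and Hist2h4), and 0 for ACE+ACE against Control, ASP+ACE against Control, IBU+ACE against ACE+ACE and IBU+ACE against ASP+ACE. A q of at most 0.01 left 0 in each of these 5 comparisons, because all rows share the q of 0.0310. Adding 1 FPKM moved the median log2 ratio of the histone genes to 0.88 for ACE+ACE over Control and to 0.96 for IBU+ACE over Control. It shifted the 12 single log2 fold changes by at most 0.06 and reversed 0. Asking for at least 10 FPKM in the higher library, adding 0.1 FPKM, or leaving out loci of several genes (0 of the 7) changed no count and moved no median by 0.01 or more. No paired analysis was possible because each group has 1 library. Depth is unknown, so no interval or detection limit is given.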

Other observations

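A few small structural RNA genes were listed. Of genes annotated as snRNA, snoRNA, scaRNA, miscellaneous RNA, ribozyme or rRNA, 0 were listed between Control and ACE+ACE. Between Control and ASP+ACE 1 was higher and 2 were lower in ASP+ACE. In the authors' deposited table the log2 fold changes were 0.81 for the snRNA gene Gm25360, -1.26 for the snRNA gene Gm22513 and -2.61 for Gm24146. Between Control and IBU+ACE 1 was higher and 1 lower, Rprl3 with a log2 fold change of 0.52 and Gm24146 with -2.30 in the authors' deposited table. Among the exposed libraries, 1 was lower in ASP+ACE than in ACE+ACE (Gm22513), and 0 were listed between ACE+ACE and IBU+ACE. Between ASP+ACE and IBU+ACE 2 were higher and 1 was lower in IBU+ACE. This grouping by annotated type was made after the values had been seen. An unlisted gene was either not called or not tested.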
